A study of Mus musculus with 29 samples.

Results

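The genes described here were the nuclear genes that encode subunits of the mitochondrial respiratory complexes II, III, IV and V, together with cytochrome c. They were taken by symbol from the mouse expression table: Sdha, Sdhb, Sdhc and Sdhd for complex II, the Uqcr genes and Cyc1 for complex III, Cycs for cytochrome c, the Cox5, Cox6, Cox7 and Cox8 genes for complex IV, and the Atp5 genes for complex V. The choice by symbol gave 48 of the 29955 rows, of which 46 reached a mean of 0.5 FPKM over the 24 libraries used and were tested among 12759 such genes. FPKM is the number of fragments per kilobase of transcript, scaled to the number of mapped fragments. It puts different genes on 1 scale, but how well it compares levels between genes was not tested here. The 46 genes were 4 of complex II, 10 of complex III, Cycs, 14 of the 16 of complex IV and 17 of complex V. The 2 genes below the mean were Cox7b2, with a mean of 0.0693 FPKM, and Cox8c, listed at 0 in all 24 libraries. The symbol rule did not take Cox4i1 and Cox4i2. It took Uqcr, a separate row whose symbol is an older name of Uqcr11, and Atp5s and Atp5sl, which RefSeq now names Dmac2l and Dmac2. These rows are counted below under complexes III and V by symbol alone. Their symbols do not show that they are separate subunits of those complexes.

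The samples were hearts of male C57BL/6J mice, about 3 months old at the start. For HF, L-NAME, an inhibitor of nitric oxide synthases, was given in the drinking water at 0.3 mg/ml together with NaCl at 1% over a protocol of 5 weeks, and the mice carried a 28-day pump delivering 0.7 mg/kg/day of angiotensin II, a hormone that raises blood pressure. Libraries were made in week 3 of the protocol (HF week 3, n = 2) and at its end (HF week 5, n = 3). Recovery mice had gone through the same protocol and were then kept without treatment to study week 7 (n = 2), 9 (n = 2), 11 (n = 3), 13 (n = 2) or 19 (n = 5), which is 2, 4, 6, 8 and 14 weeks of recovery. Control week 19 mice (n = 5) were untreated and of the age of the Recovery week 19 mice, so that they were 14 weeks further on than the HF week 5 mice. Age and heart failure cannot be told apart in a comparison of these last 2 groups. The study also had Control week 5 mice, but their 5 table columns could not be matched to the 4 labelled samples and were not used here. The labels name whole heart or whole ventricle, and the study's methods name apical portions. The p-values below measure the spread between these libraries.

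The respiratory chain passes electrons from food to oxygen across the inner mitochondrial membrane and uses the energy to pump protons. Complex II takes electrons from succinate in the citric acid cycle and passes them to ubiquinone, complex III passes them on to cytochrome c, and complex IV hands them to oxygen. Complex V, the ATP synthase, lets the protons flow back and makes ATP, most of which cardiac muscle spends on contraction and calcium handling. Complex II is encoded in the nucleus alone, whereas complexes III, IV and V also hold subunits encoded by mitochondrial DNA, which are not among these genes.

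Some libraries stood apart in ways that touch every result below. HF week 5 library 1 held 18388 FPKM of Myl7 and 9904 FPKM of Sln, markers of atrial muscle, against 152 and 6.16 FPKM of Myl7 in libraries 2 and 3 and at most 1.12 FPKM in Control week 19. The HF week 3 libraries held 1805 and 5773 FPKM of Myl7. The number of genes with a value above 0 was 12816 in HF week 3 library 1 and between 16339 and 18091 elsewhere. The absolute depth is unknown, because the tables hold no counts; the relative depth could be read from the steps between low values in 23 libraries and ranged from 0.729 to 1.40 of their median. Myh6, Myl2 and Mb, which heart muscle uses, were listed at 0 in 1 or more whole groups, so a listed 0 may be a failed estimate. In bulk samples fewer cells of a type and less RNA per cell cannot be told apart. The sum of all these genes' FPKM was 19.2% to 20.6% of the table's total in Control week 19, and 13.8%, 18.96% and 17.9% in HF week 5 libraries 1 to 3. These totals are not alike, because Myh6 and Myl2 were listed at 0 in Control week 19 but not both in HF week 5. With them the ventricular muscle markers summed to 31393, 73538 and 69014 FPKM in HF week 5 libraries 1 to 3. Without them the sums were 20615, 37329 and 33074. Complexes III, IV and V had median sums of 29283, 66031 and 61658 FPKM in HF week 5. In Control week 19 these were 26535, 61949 and 58290. For complex II the median sums were 1901.9 and 2485.6.

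In Control week 19 the levels ran over a wide range within each complex. Mean FPKM per gene went from 348 (Sdhd) to 1204 (Sdhb) in complex II, from 19.7 (Uqcr) to 8957 (Uqcrq) in complex III, from 8.397 (Cox6b2) to 14607 (Cox8b) in complex IV, and from 13.3 (Atp5s) to 14917 (Atp5k) in complex V. The median of the gene means was 480 FPKM for complex II, against 1780, 2791 and 2701 FPKM for complexes III, IV and V, and Cycs stood at 488 FPKM. In the 3 pairs of a heart and muscle isoform and a general isoform, the muscle form was far above the other on this scale: Cox6a2 was 6.34 to 8.52 times Cox6a1, Cox7a1 was 10.5 to 17.8 times Cox7a2, and Cox8b was 16.2 to 21.0 times Cox8a.

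At HF week 5, 10 of the 46 genes were lower than in Control week 19 and 0 were higher (limma on log2(FPKM + 0.5), Benjamini-Hochberg adjusted p under 0.05 over all 12759 genes; at an unadjusted p under 0.05 there were 13 lower and 0 higher). The share of lower calls among these genes was 21.7%, against 12.4% of all genes tested. The 10 were Sdha, Sdhc and Sdhd of complex II, Uqcrc2 and Uqcrfs1 of complex III, Cycs, and Atp5a1, Atp5b, Atp5c1 and Atp5f1 of complex V. None of the 14 tested complex IV genes was called, and 0 of them passed an unadjusted p under 0.05. Under quantile normalization, which gave more lower calls, limma called Cox5a (log2 fold change −0.44, adjusted p = 0.00899) and Cox7c (−0.49, 0.0106) of complex IV lower. The median log2 fold change was −0.18 over the 46 genes and 0.04 over all genes tested. By complex it was −0.85 for II, −0.28 for III, −0.07 for IV and −0.19 for V. Genes are not replicates, and the difference between complexes was not tested. All 3 HF week 5 libraries lay below all 5 Control week 19 libraries for 15 of the 46 genes, as they did for 14.7% of all genes tested, and for 0 genes were they all above.

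HF week 5 library 1 carried part of this difference. Without it, 6 of the 46 genes were called lower, namely Sdha, Sdhc, Sdhd, Uqcrc2, Atp5a1 and Atp5f1, against 6.45% of the 12704 genes then tested, and the median over the 46 genes was −0.01. By complex the median was then −0.66 for II, −0.05 for III, 0.12 for IV and −0.01 for V, so that the value of complex IV changed sign. In that limma fit Cycs (log2 fold change −0.51, adjusted p = 0.0745), Atp5c1 (−0.60, 0.081), Uqcrfs1 (−0.33, 0.145) and Atp5b (−0.28, 0.204) were not called. With the HF week 3 libraries left out as well, a setting added after seeing the data, Cycs (adjusted p = 0.0328) and Atp5c1 (0.0173) were called again. The 6 that stayed were called lower under every one of the 18 other settings tried, including each library of the groups compared left out in turn.

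**Figure D1:**
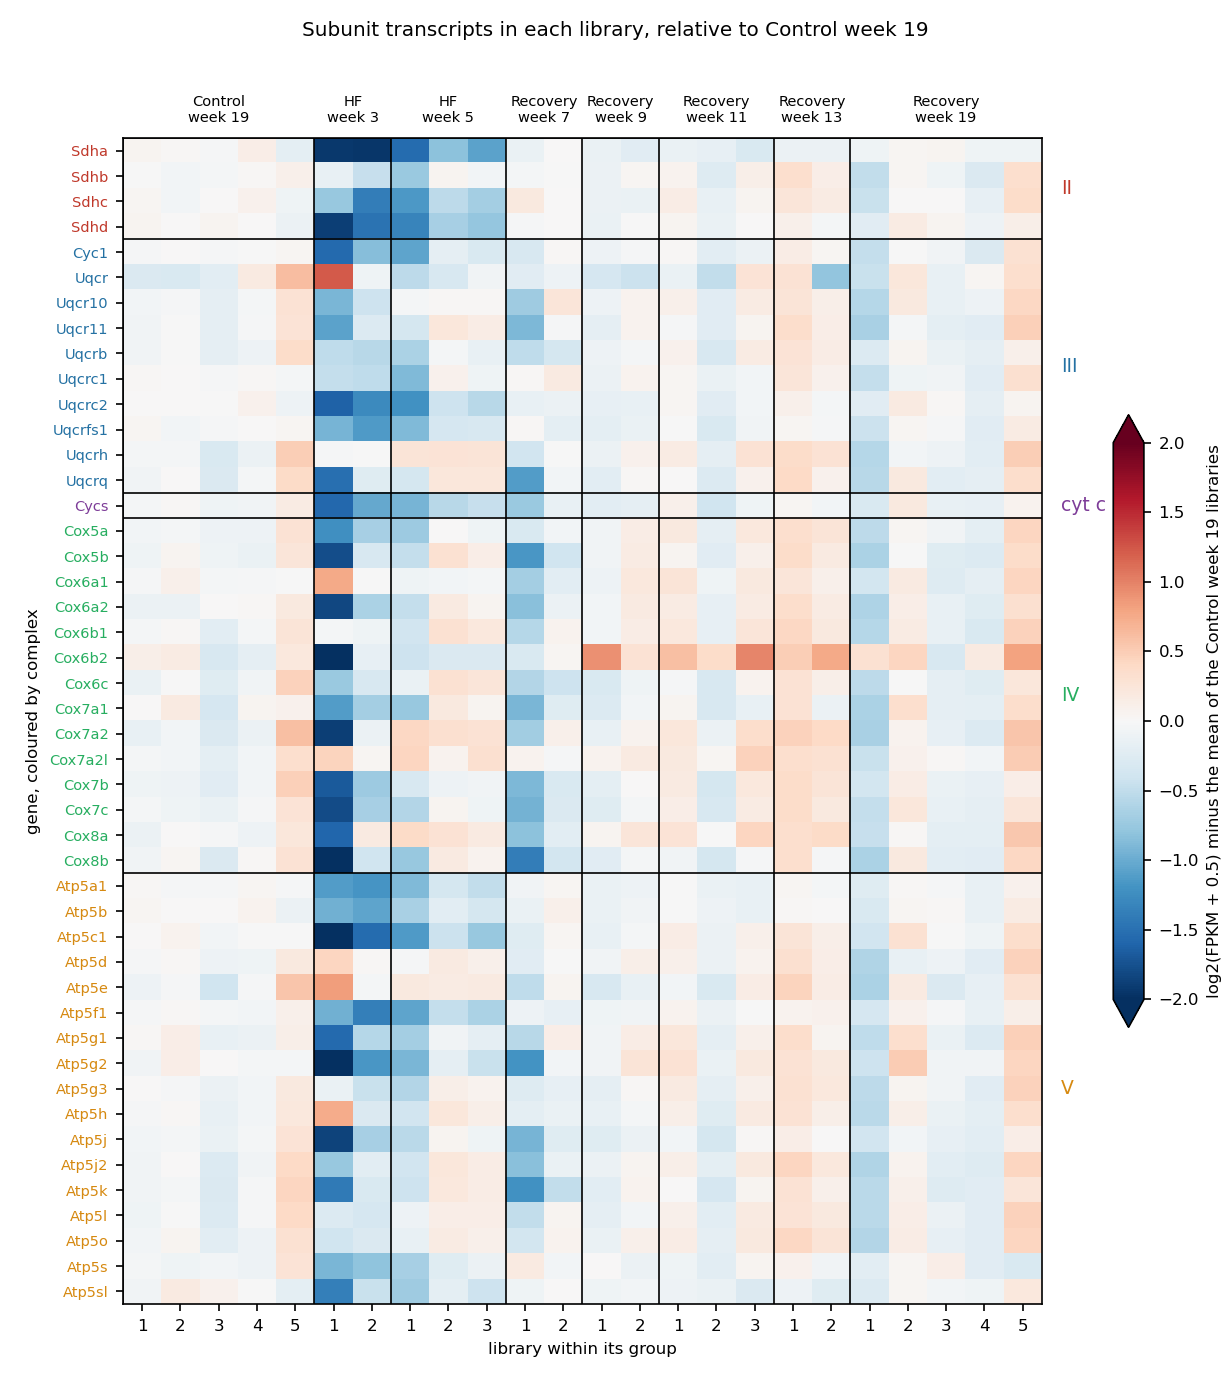
Level of each of the 46 tested subunit genes in each of the 24 libraries, as the log2 difference of FPKM + 0.5 from the gene's mean in Control week 19; rows are genes grouped by complex, columns are libraries grouped by study week, and colour gives the difference. Complex II genes other than Sdhb are low in all HF libraries. Most complex IV genes are low in several libraries of different groups. Among these are HF week 3 libraries 1 and 2, HF week 5 library 1, Recovery week 7 library 1 and Recovery week 19 library 1. In HF week 5 libraries 2 and 3 most complex IV genes are near the controls.

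**Figure D2:**
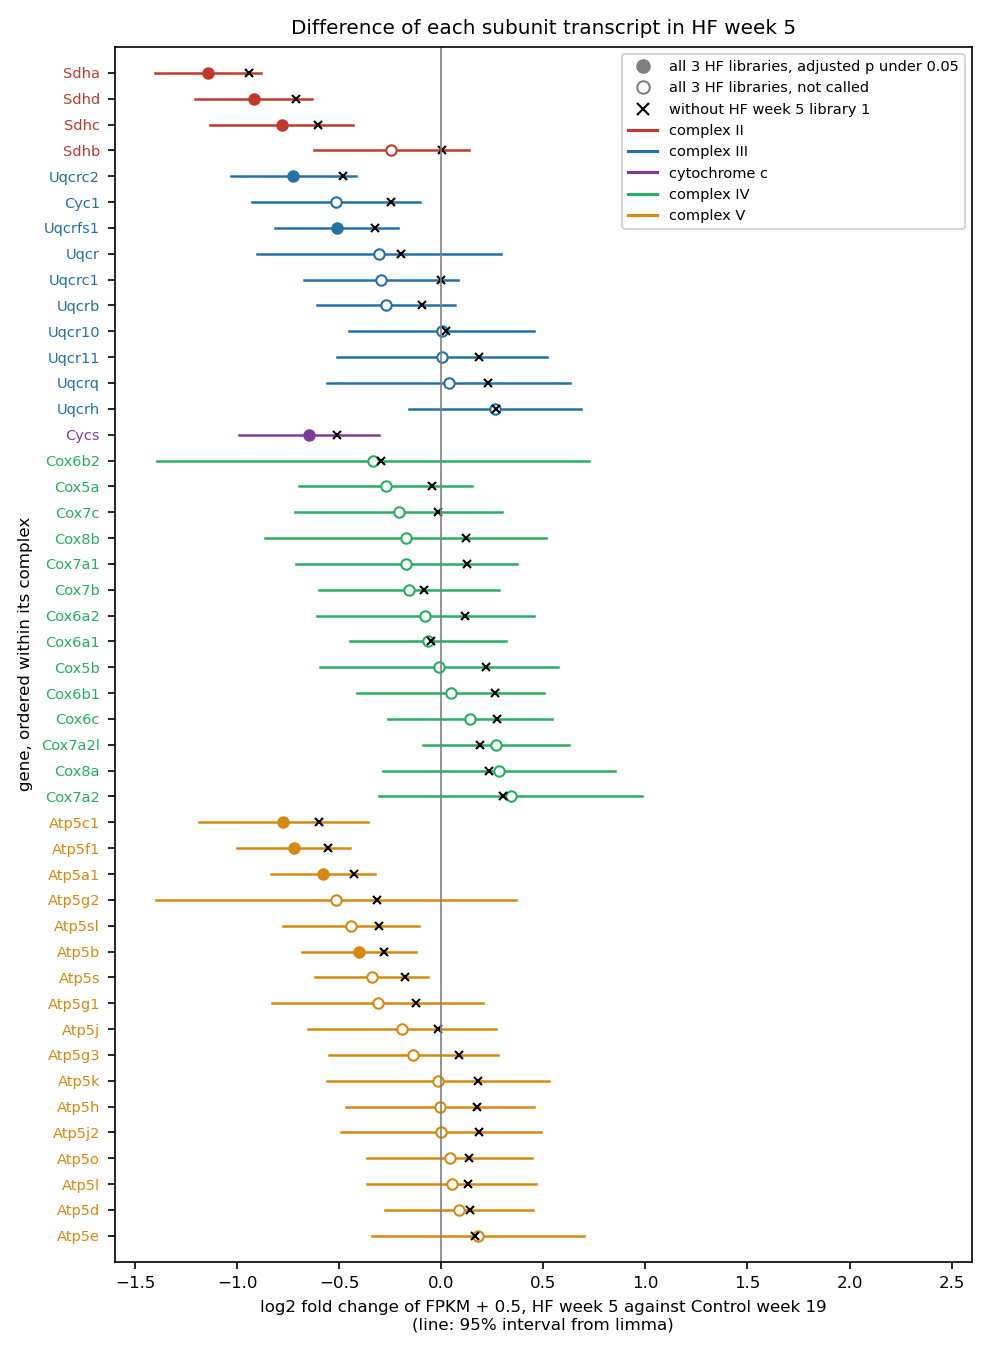
Log2 fold change of HF week 5 (n = 3) against Control week 19 (n = 5) for each tested gene, with the 95% interval from limma as a line; filled points have an adjusted p under 0.05 and crosses give the value without HF week 5 library 1. The 10 filled points lie between −1.14 and −0.40, in complexes II, III and V and at Cycs.

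In complex II the catalytic and membrane-anchor subunits were lower at HF week 5, and the iron-sulphur subunit was not called. Sdha encodes the flavoprotein that oxidises succinate. Its level was 441, 429, 418, 462 and 368 FPKM in the Control week 19 libraries and 145, 239 and 201 FPKM in HF week 5 libraries 1 to 3. The groups did not overlap, and the highest HF library was well below the lowest control. The means were 423 ± 35.0 and 195 ± 47.3 FPKM (SD, n = 5 and 3), a 2.21-fold lower level on the log2(FPKM + 0.5) scale (log2 fold change −1.14 ± 0.12 SE, adjusted p = 2.07e-05), and −0.94 without HF week 5 library 1.

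Sdhd and Sdhc encode the small pair of subunits that anchor complex II in the membrane and form its ubiquinone site. Sdhd stood at 359, 349.7, 360.0, 349 and 322 FPKM in Control week 19 and at 138, 219.8 and 204 FPKM in HF week 5. Again no HF library reached the lowest control, which was library 5. The log2 fold change of Sdhd was −0.92 ± 0.14 (SE, adjusted p = 0.000185). Sdhc stood at 551, 517, 537, 569 and 505 FPKM in Control week 19 and at 242, 371 and 335 FPKM in HF week 5, with no overlap, and its log2 fold change was −0.78 ± 0.17 (SE, adjusted p = 0.00287). Without HF week 5 library 1 the log2 values were −0.71 for Sdhd and −0.60 for Sdhc, both still called.

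Sdhb encodes the iron-sulphur subunit, which carries electrons from Sdha towards the membrane. Its 5 control values were 1193, 1154, 1171, 1219 and 1285 FPKM, and the HF week 5 values were 719, 1255 and 1161 FPKM. Library 1 was below every control, whereas libraries 2 and 3 lay within the control range. The log2 fold change was −0.24 with a 95% interval of −0.62 to 0.14 (adjusted p = 0.353), so a fall as large as that of Sdha lies outside the interval. Whether Sdhb differed from the other 3 genes in its change was not tested.

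Promoter sequence is given for Sdha and Sdhd, called lower in complex II, for Cycs, and for Sdhb, which was not called, so that they can be read against each other. Each window runs 5′ to 3′ on the gene's strand from 250 bases before to 50 bases after the RefSeq transcription start (GRCm38.p6, a later build than that of the expression table), in lower case, with capitals marking matches to the core of the NRF1 site, GCGCANGCG, or its reverse complement CGCNTGCGC; matches may overlap. NRF1 is a transcription factor with known sites in promoters of respiratory chain genes. Sdha lies at chr13:74350191-74350490 on the minus strand, Sdhd at chr9:50603800-50604099 on the minus strand, Cycs at chr6:50566520-50566819 on the minus strand and Sdhb at chr4:140961021-140961320 on the plus strand.
Sdha: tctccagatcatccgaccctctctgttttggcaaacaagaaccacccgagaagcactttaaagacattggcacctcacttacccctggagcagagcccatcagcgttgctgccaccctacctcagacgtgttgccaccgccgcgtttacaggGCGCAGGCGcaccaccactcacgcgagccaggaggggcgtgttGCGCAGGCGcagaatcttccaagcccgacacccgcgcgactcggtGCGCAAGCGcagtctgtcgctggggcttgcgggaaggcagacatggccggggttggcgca
Sdhd: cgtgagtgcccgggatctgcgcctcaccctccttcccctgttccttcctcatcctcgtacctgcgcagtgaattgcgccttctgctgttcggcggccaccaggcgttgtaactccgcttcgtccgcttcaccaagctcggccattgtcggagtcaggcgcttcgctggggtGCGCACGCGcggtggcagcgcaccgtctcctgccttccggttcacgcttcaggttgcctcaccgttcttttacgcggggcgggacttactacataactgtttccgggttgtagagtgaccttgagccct
Cycs: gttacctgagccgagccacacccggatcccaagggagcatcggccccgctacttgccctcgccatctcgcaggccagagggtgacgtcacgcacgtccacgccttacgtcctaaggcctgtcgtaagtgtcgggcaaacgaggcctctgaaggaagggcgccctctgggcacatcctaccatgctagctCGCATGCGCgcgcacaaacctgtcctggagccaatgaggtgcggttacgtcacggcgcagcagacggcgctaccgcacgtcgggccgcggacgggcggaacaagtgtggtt
Sdhb: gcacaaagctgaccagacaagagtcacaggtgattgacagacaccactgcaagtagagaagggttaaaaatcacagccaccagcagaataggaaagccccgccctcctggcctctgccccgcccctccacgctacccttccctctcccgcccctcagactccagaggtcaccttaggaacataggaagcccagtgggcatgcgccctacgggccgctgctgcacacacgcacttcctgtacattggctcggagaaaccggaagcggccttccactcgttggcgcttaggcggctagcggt
The first match began 98 bases before the start in Sdha, 79 bases before it in Sdhd and 61 bases before it in Cycs, and these letters were not in the Sdhb window. Of the 46 tested genes, 37 had a window. These letters were found in 13 of the 37 (35.1%), among them Atp5g2, Atp5g3, Atp5h, Cox6a1, Uqcrc1 and Uqcr11. The share was 15.2% of the 8474 tested genes with a window and 7.03% of all 27025 genes with one. Called lower without these letters were Atp5b, Atp5f1 and Uqcrfs1. The letters were in 4 of the 7 genes called lower that had a window and in 9 of the other 30. With the wider letters GCGCNNGCG these were 4 of 7 and 13 of 30, or 45.9% of the 37, against 27.8% of tested genes with a window. The core of the ETS factor site, CCGGAAGT on either strand, was in 4 of the 37 (10.8%), against 8.80% of tested genes with a window. A match describes the letters only.

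In complex III a core subunit and the Rieske protein were lower, and none of the other 8 genes was called. Uqcrc2, a core protein of the matrix side, stood at 415, 414, 409, 434 and 384 FPKM in Control week 19 and at 177, 309.9 and 279.6 FPKM in HF week 5. Every HF library was below every control, and library 1 was by far the lowest. The log2 fold change was −0.72 ± 0.15 (SE, adjusted p = 0.0019), and −0.48 without library 1.

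Uqcrfs1 encodes the Rieske iron-sulphur protein, which takes electrons from ubiquinol. It stood at 935, 879, 897, 910.4 and 932 FPKM in Control week 19 and at 494, 719 and 733 FPKM in HF week 5, with no overlap. The log2 fold change was −0.51 ± 0.14 (SE, adjusted p = 0.0152). Cyc1, the cytochrome c1 that passes electrons to cytochrome c, stood at 1302, 1339.8, 1307, 1326 and 1371 FPKM against 638, 1171 and 1075 FPKM. All 3 HF libraries were below the controls here too, but Cyc1 was not called (adjusted p = 0.0617, log2 fold change −0.52 ± 0.20 SE). Uqcr10 and Uqcr11, small subunits with the highest adjusted p in the complex, had log2 fold changes of 0.00 and 0.01. Uqcr10 stood at 2866 to 3963 FPKM in Control week 19 and at 3146, 3299 and 3286 FPKM in HF week 5, wholly within the control range. Uqcr11 stood at 5799 to 7959 FPKM and at 5127, 7707 and 7266 FPKM, with library 1 below the controls and the others among them.

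Cycs, the soluble carrier between complexes III and IV, was also lower. Its control values were 473, 495, 457, 466 and 548 FPKM and its HF week 5 values 255, 329.7 and 355 FPKM, so that the groups were separate. The log2 fold change was −0.65 ± 0.16 (SE, adjusted p = 0.00799), equal to a 1.57-fold lower level.

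In complex V, 4 of the 17 genes were lower: Atp5a1 and Atp5b of the catalytic head, Atp5c1 of the central stalk and Atp5f1 of the side stalk. The other tested stalk genes Atp5d, Atp5e, Atp5h, Atp5j and Atp5o were not called, with log2 fold changes of 0.08, 0.18, −0.01, −0.19 and 0.04. Atp5f1 encodes subunit b of the side stalk. It stood at 531, 545, 523, 518 and 575 FPKM in Control week 19 and at 259, 384 and 347 FPKM in HF week 5, and the groups did not overlap. Its log2 fold change was −0.72 ± 0.13 (SE, adjusted p = 0.000916). Atp5a1, the alpha subunit of the head, stood at 1999.5, 1938, 1937, 2006 and 1924 FPKM against 1061, 1529 and 1393 FPKM, likewise with every HF library lower. Its log2 fold change was −0.58 ± 0.12 (SE, adjusted p = 0.0024).

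Atp5c1 encodes the gamma subunit, the shaft that turns inside the head. It stood at 927, 975, 893, 919 and 917 FPKM in Control week 19 and at 424, 684 and 546 FPKM in HF week 5. No HF library reached the controls, and the log2 fold change was −0.77 ± 0.20 (SE, adjusted p = 0.00868). Atp5b, the catalytic beta subunit, was named because it was called. It stood at 3301, 3241, 3239.7, 3365 and 2953 FPKM against 2049, 2773 and 2533 FPKM, and all HF values were the lower ones (adjusted p = 0.0343, log2 fold change −0.40 ± 0.13 SE). Atp5h and Atp5j2, subunits d and f, had log2 fold changes of −0.01 and 0.00. Atp5h stood at 3886 to 4991 FPKM in Control week 19 and at 3334, 5080.2 and 4717 FPKM in HF week 5, and Atp5j2 at 4410.2 to 7033 FPKM and at 4096, 6227 and 5919 FPKM. Of both, library 1 was below the controls and the other 2 were not.

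The proton-carrying ring of complex V is made of subunit c, for which Atp5g1, Atp5g2 and Atp5g3 each encode the same mature protein. None of the 3 was called, with log2 fold changes of −0.31 (adjusted p = 0.384), −0.52 (0.402) and −0.14 (0.653) from limma. Atp5g2, the lowest of them, stood at 1036 to 1195 FPKM in Control week 19 and at 575, 959.6 and 796 FPKM in HF week 5. Atp5g1 stood at 3864 to 4700.4 FPKM against 2658, 4072 and 3774 FPKM, and Atp5g3 at 4153 to 5152 FPKM against 2987, 4846 and 4699.8 FPKM. For Atp5g2 all HF libraries were below the controls, whereas for Atp5g1 and Atp5g3 some lay among them.

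The 14 tested complex IV genes had log2 fold changes from −0.33 to 0.34 at HF week 5, with a lowest adjusted p of 0.269 in limma. Their 95% intervals reached from −1.39 (Cox6b2) to 0.99 (Cox7a2), and for 8 of the 14 the lower bound was under −0.5, so falls of that size lie within the intervals of those genes. Cox5a, which sits on the matrix side, stood at 1812, 1834, 1748, 1759.7 and 2301 FPKM in Control week 19 and at 1134, 1884 and 1767 FPKM in HF week 5. Its library 1 value was below the controls and the other 2 lay among them. Cox5b stood at 5174 to 6698 FPKM in Control week 19 and at 4077, 7023 and 6247 FPKM in HF week 5, on both sides of the control range. Cox6b1 stood at 3161 to 4406 FPKM and at 2806, 4545 and 4263 FPKM (log2 fold change 0.05), with library 1 below and library 2 above the controls. Cox7a2l, which helps join complexes III and IV into supercomplexes, stood at 289 to 419.9 FPKM in Control week 19 and at 446, 346 and 412 FPKM in HF week 5 (log2 fold change 0.27, adjusted p = 0.269). Cox6a1 was the 1 complex IV gene with every HF library below every control, at 922, 941 and 956 FPKM against 958 to 1051 FPKM, a log2 fold change of −0.06. Its muscle form Cox6a2 stood at 6661 to 8332 FPKM in Control week 19 and at 5232, 8224 and 7523 FPKM in HF week 5. Cox7a1 stood at 11034 to 15820.2 FPKM and at 8175, 15849.9 and 14494 FPKM, and Cox8b at 11912 to 17719 FPKM and at 8522, 16339.7 and 15209 FPKM. In these 3 muscle forms library 1 was below every control and libraries 2 and 3 were not. Of the general forms, Cox7a2 stood at 758 to 1404 FPKM and at 1233, 1152 and 1124 FPKM, and Cox8a at 691 to 872 FPKM and at 973, 908 and 849 FPKM. The HF week 5 values of Cox7a2 lay within the control range, and libraries 1 and 2 of Cox8a above it.

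The ratio of the muscle to the general isoform was set against the groups with exact two-sided permutation tests, 9 in all. Cox6a2 to Cox6a1 was 2.88 ± 0.16 on the log2 scale in Control week 19 and 2.87 ± 0.33 in HF week 5 (SD, n = 5 and 3, exact p = 1). Cox7a1 to Cox7a2 was 3.91 ± 0.31 and 3.40 ± 0.58 (exact p = 0.214), and Cox8b to Cox8a was 4.28 ± 0.15 and 3.82 ± 0.60 (exact p = 0.143). The smallest adjusted p of the 9 was 0.482, and the smallest p that 3 against 5 libraries allow is 0.0357. HF week 5 library 1 had the lowest ratio of the 3 HF libraries in each pair: 2.50 against 3.13 and 2.98, 2.73 against 3.78 and 3.69, and 3.13 against 4.17 and 4.16. In Recovery week 19 the 3 ratios were 2.81 ± 0.13, 3.93 ± 0.17 and 4.24 ± 0.14 (SD, n = 5).

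**Figure D3:**
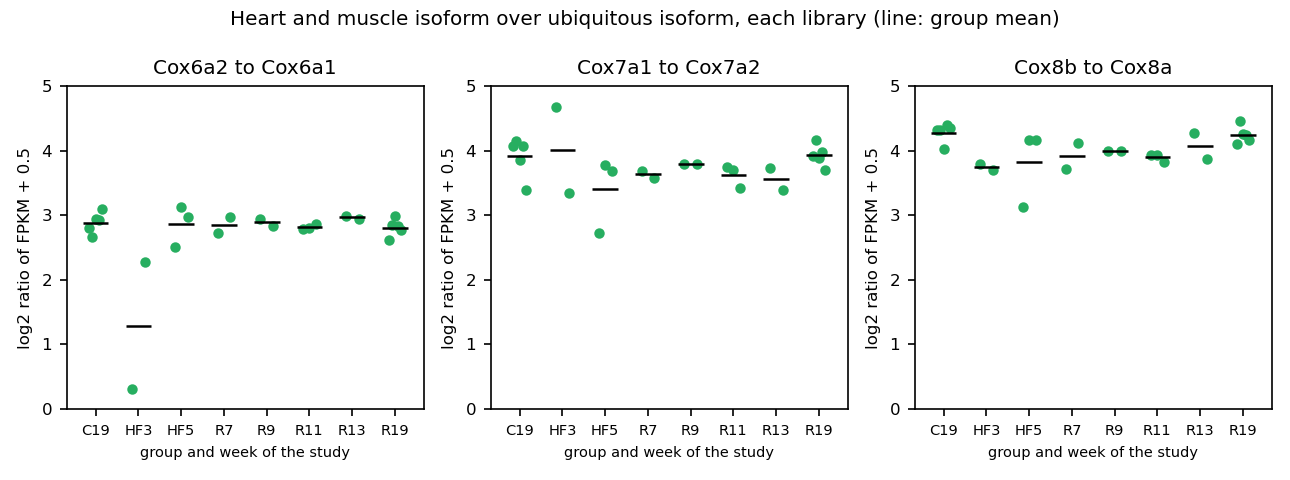
Log2 ratio of the muscle to the general isoform (Cox6a2 to Cox6a1, Cox7a1 to Cox7a2, Cox8b to Cox8a) in each of the 24 libraries, by group; points are libraries and lines are group means (C19 stands for Control week 19, R for recovery). HF week 5 library 1 is the lowest of its group in all 3 pairs, and libraries 2 and 3 lie near the Control week 19 values, while HF week 3 library 1 is at 0.31 for Cox6a2 to Cox6a1.

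Markers of other cells moved with the HF groups. Summed FPKM of the fibroblast list was 225 to 313 in Control week 19, 322 to 630 in HF week 5 and 673 to 679 in HF week 3. The smooth muscle list was 69.3 to 97.4 in Control week 19 and 133 to 221 in HF week 5, and the endothelial list 171 to 193 and 199 to 264. The ventricular list, without Myh6 and Myl2, was 32276 to 40025 in Control week 19 and 20615 to 37329 in HF week 5. The atrial list without Nppa was 4.89 to 8.52 in Control week 19 and 15.5 to 39730 in HF week 5. The leukocyte list was 82.4 to 157 and 112 to 186, the fat list 32.7 to 40.0 and 36.7 to 69.9, the skeletal muscle list 130 to 437 and 584 to 1318, and the erythroid list, with 2 of its 3 genes in the table, 221 to 866 and 54.2 to 919.7. Ucp1, which defines brown fat, was listed at 0 in all Control week 19 libraries and at 13.03, 1.68 and 0.292 FPKM in HF week 5. Myh1 and Myh4, which define fast skeletal muscle, were at or near 0 in every library, at most 0.0113 and 0.0128 FPKM. The sums of the skeletal muscle list, here and below, thus came from Acta1 and Tnnt3 and do not show skeletal muscle cells. The part of these markers in the lower subunit levels was not tested.

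Transcript length went along with the calls. The length of a gene was the median over its annotated protein-coding transcripts. It need not be that of the transcript expressed in heart, so some genes may lie on the wrong side of the split below. The tested subunit transcripts had a median length of 652 bases, against 2074 bases over all tested genes with a length. All 10 genes called lower at HF week 5 were among the 23 longer ones, and 0 of the 23 shorter ones were called or passed an unadjusted p under 0.05 in limma. The median log2 fold change was −0.44 for the longer and −0.01 for the shorter genes. With each library's trend of log2 FPKM on length removed, a setting added after seeing the data, 14 of the 46 genes were called lower, beside 14.2% of the 11946 genes with a length, among them Cyc1, Uqcrb, Atp5s and Atp5sl. Complex IV still had 0 of 14 called in that fit, with a median of −0.15, and complex II 3 of 4.

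**Figure D4:**
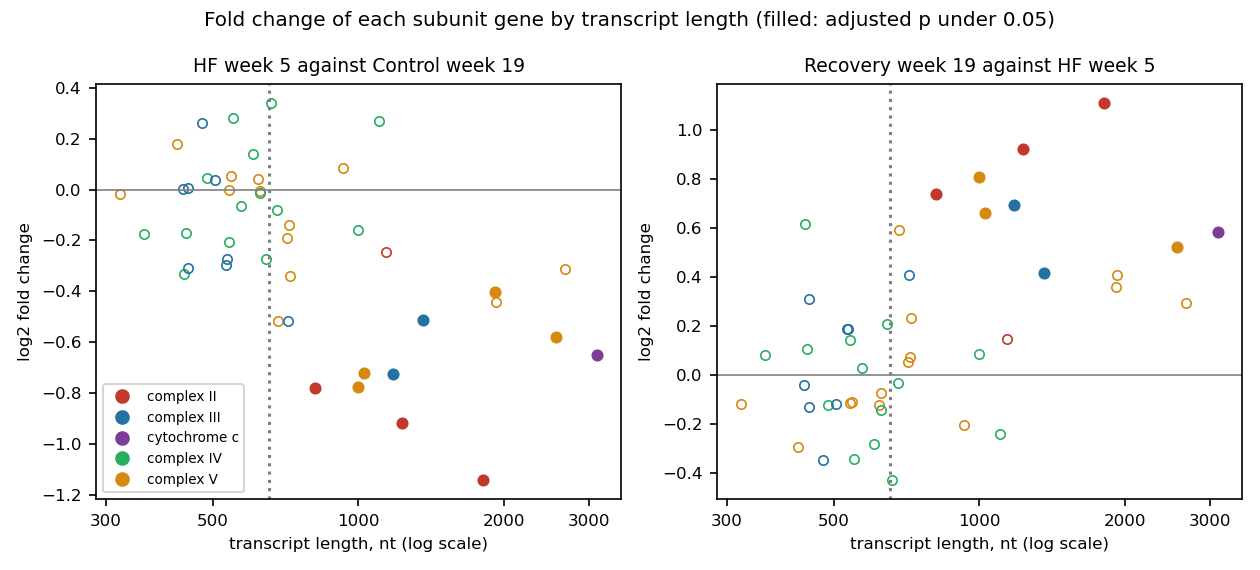
Log2 fold change of HF week 5 against Control week 19 (left) and of Recovery week 19 against HF week 5 (right) for each tested subunit gene against its transcript length in bases (log axis), coloured by complex, with genes at an adjusted p under 0.05 as filled points; the dotted line is the median length of 652 bases. All 10 filled points on the left and all 9 on the right lie beyond the dotted line, at the longer transcripts.

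At Recovery week 19, 3 of the 4 complex II genes, Cycs and some genes of complexes III and V were higher than at HF week 5. In limma there were 9 of the 46 genes higher and 0 lower (11 and 0 at an unadjusted p under 0.05), against 12.3% of all genes called higher. The 9 were Sdha, Sdhc, Sdhd, Uqcrc2, Uqcrfs1, Cycs, Atp5a1, Atp5c1 and Atp5f1. The same HF week 5 libraries enter this and the comparison with Control week 19, so the directions are not independent of each other. All 5 Recovery week 19 libraries were above all 3 HF week 5 libraries for 8 of the 46 genes, and for 14.1% of all genes tested. Without HF week 5 library 1, 6 of the 46 were called higher, against 6.9% of all genes, and Cycs, Uqcrfs1 and Atp5c1 were not. In a fit of the compared groups alone, Atp5a1 (adjusted p = 0.0787 from limma) and Uqcrfs1 (0.173) were not called. In Recovery week 19 the smooth muscle list summed to 71.8 to 92.1 FPKM, the endothelial list to 177 to 194 FPKM and the atrial list without Nppa to 3.04 to 5.91 FPKM, all below their HF week 5 ranges, whereas the fibroblast list, at 282 to 413 FPKM, overlapped its HF week 5 range. The part of these markers in the difference was not tested. The Recovery week 19 mice were also 14 weeks further on, so age and recovery cannot be told apart here.

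Sdha was at 396, 432, 440.0, 397 and 397 FPKM in Recovery week 19, all above the HF week 5 values and within the Control week 19 range. Its log2 fold change against HF week 5 was 1.11 ± 0.12 (SE, adjusted p = 2.45e-05). Sdhd was at 297, 391, 359.8, 323 and 377 FPKM, and Sdhc at 393, 539.6, 536, 479.6 and 693 FPKM. For both, every recovery library was above every HF week 5 library, and library 1 was the lowest. Sdhb was at 854, 1238, 1131, 987 and 1520.3 FPKM, a range that takes in libraries 2 and 3 of HF week 5. Atp5f1 was at 424, 569, 530.0, 485 and 580.4 FPKM (log2 fold change 0.66), and Cycs at 394, 557, 440.2, 436 and 514 FPKM (0.58, adjusted p = 0.0152). The 14 complex IV genes had a median log2 fold change of 0.00 and 0 calls, with 0 at an unadjusted p under 0.05. Under quantile normalization, which gave more calls, limma called Cox5a (0.43, adjusted p = 0.00976) and Cox7c (0.45, 0.0161) higher.

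Recovery week 19 and Control week 19 were of 1 age and differed in the earlier protocol. limma called 0 of the 46 genes between them, 0 passed an unadjusted p under 0.05, and 0 had groups that did not overlap. Over all genes 0.0235% were called, so few calls were made anywhere in the table. The log2 fold changes ran from −0.16 to 0.28 with a median of −0.07. The 95% intervals ran from −0.69 (Atp5g2) to 1.198 (Cox6b2), with a median width to each side of 0.36. For complex II they lay between −0.43 and 0.26, and for Sdha the difference was −0.04 with an interval of −0.26 to 0.19. A difference as large as that of Sdha between HF week 5 and Control week 19 lies outside the interval of every complex II gene.

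The recovery groups between these ends were small. At Recovery week 7, 2 weeks after the protocol ended, 6 of the 46 genes were called higher than at HF week 5 and 0 lower, against 8.05% of all genes called higher. They were Sdha (log2 fold change 1.08), Sdhd (0.91), Sdhc (0.88), Atp5f1 (0.59), Uqcrc2 (0.59) and Atp5a1 (0.56). Sdha was at 386 and 426 FPKM, Sdhd at 343 and 348 FPKM and Sdhc at 614 and 537 FPKM, each pair above all HF week 5 libraries. With HF week 5 library 1, Recovery week 7 library 1 or its library 2 left out, 2 genes were called each time, beside 4.10%, 2.48% and 1.83% of all genes, and 0 when only the groups compared entered the fit, beside 1.38%. The 14 complex IV genes had a median log2 fold change of −0.41 against HF week 5 and 0 calls (3 genes lower at an unadjusted p under 0.05). This depended on single libraries: the median was −0.15, with 0 of the 14 genes lower at an unadjusted p under 0.05, without Recovery week 7 library 1, −0.74 with 7 without its library 2, and −0.60 with 4 without HF week 5 library 1. The smooth muscle list summed to 72.1 to 73.3 FPKM in Recovery week 7, the endothelial list to 159 to 178 FPKM the fibroblast list to 242 to 320.2 FPKM, the skeletal muscle list to 394 to 562 FPKM and the atrial list without Nppa to 5.26 to 8.63 FPKM, each below its HF week 5 range, and their part in the difference was not tested.

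Against Control week 19, Recovery week 7 had 0 of the 46 genes called (0.047% of all genes), with 10 lower and 0 higher at an unadjusted p under 0.05 (3.61% of all genes in either direction), of which 6 were of complex IV. The 2 libraries differed: Cox7a1 was at 7382 and 11797 FPKM, and Cox5b at 2548 and 4335 FPKM, against 11034 to 15820.2 and 5174 to 6698 FPKM in Control week 19. For Cox5b both libraries were below the controls. Recovery weeks 9, 11 and 13 had 0 of the 46 genes called by limma and 0 at an unadjusted p under 0.05 against Control week 19, where 0.0549%, 0.149% and 0.0784% of all genes were called. Their median log2 fold changes were −0.07, −0.02 and 0.21. Sdha stayed between 344 and 390.2 FPKM in these 7 libraries, and Cycs between 369 and 520.0 FPKM. All of these values were above the HF week 5 values of the same gene.

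**Figure D5:**
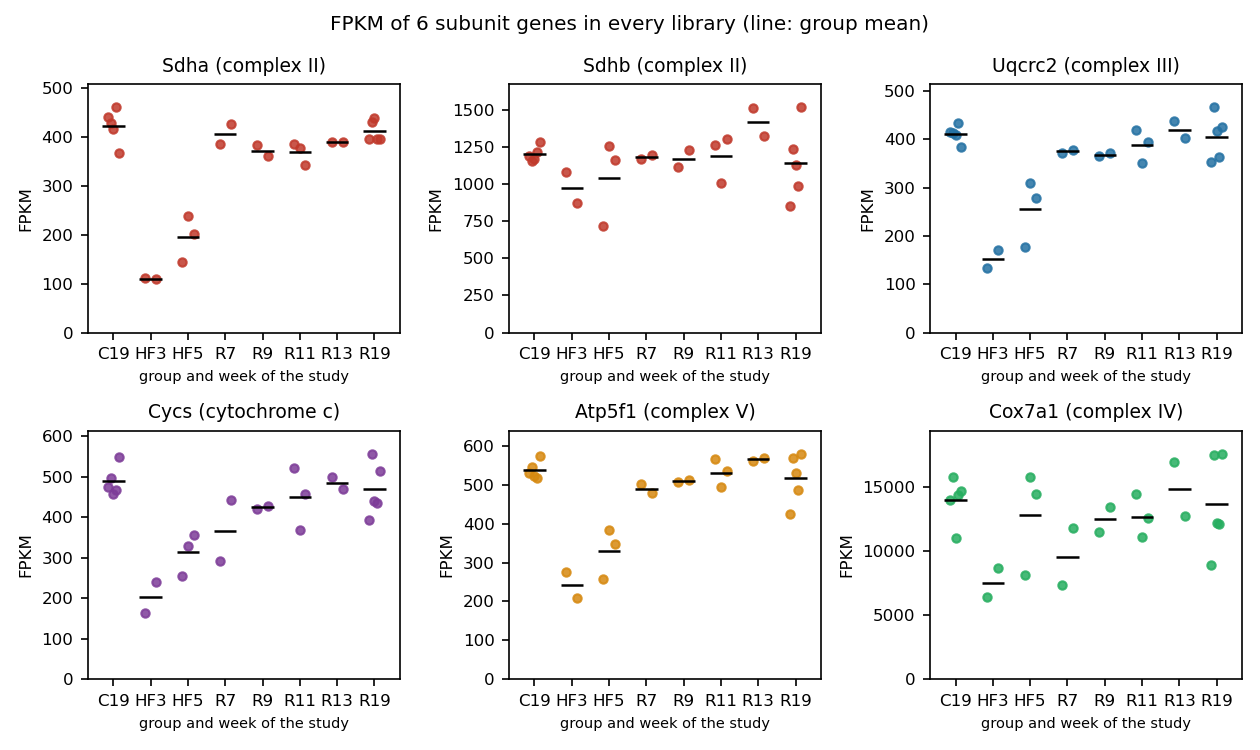
FPKM of Sdha, Sdhb, Uqcrc2, Cycs, Atp5f1 and Cox7a1 in each library by group (C19 stands for Control week 19, R for recovery, with the study week); points are libraries and lines are group means. Sdha, Uqcrc2 and Atp5f1 are low in HF weeks 3 and 5 and near the control values from Recovery week 7, whereas Sdhb and Cox7a1 overlap the controls in HF week 5.

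At HF week 3, 30 of the 46 genes were lower than in Control week 19 and 0 higher, against 27.6% of all genes called lower. The calls were 3 of 4 in complex II, 6 of 10 in complex III, Cycs, 10 of 14 in complex IV and 10 of 17 in complex V, and the median log2 fold change was −0.90. Cox6b2 of complex IV was listed at 0 in library 1, which may be a failed estimate. In library 2 it was at 7.38 FPKM, within the Control week 19 range of 6.54 to 9.71 FPKM. Sdha stood at 111 and 109 FPKM (log2 fold change −1.93), Sdhd at 93.5 and 124 FPKM (−1.69), Uqcrc2 at 134 and 170.4 FPKM (−1.44) and Cycs at 163 and 240.0 FPKM. These values were below all HF week 5 libraries for each of the 4 genes. In HF week 3 the summed lists were 139 to 160.1 FPKM for smooth muscle, 240.4 to 319 for endothelium, 930.1 to 2229 for skeletal muscle, 7737 to 14050 for atrial muscle without Nppa, all above the Control week 19 ranges, and 22286 to 27461 for ventricular muscle without Myh6 and Myl2, below it. The part of these markers was not tested. Much of the count rested on library 1. Without it 13 genes were called lower, against 15.6% of all genes, with 0 of 14 in complex IV, and Sdha was at −1.94; the lone library left was assumed to vary like the other groups. The controls are those of the HF week 5 comparison and were older than the HF week 3 mice, so age and heart failure cannot be told apart here either.

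Genes that build these complexes were looked at beside their subunits. Of 41 listed assembly and supercomplex genes, 26 were tested, and at HF week 5 14 were lower than in Control week 19 (12.4% of all genes tested were) and 0 higher in limma, with a median log2 fold change of −0.49. They were 1 of 3 for complex II, 3 of 4 for complex III, 7 of 14 for complex IV, 3 of 3 for complex V and 0 of 2 for supercomplexes. Taco1, which activates translation of the mitochondrially encoded COX1, was named for the size of its change. It stood at 19.3, 19.7, 19.3, 21.7 and 11.4 FPKM in Control week 19, at 2.46, 4.82 and 6.12 FPKM in HF week 5 and at 17.4, 21.6, 17.8, 16.5 and 16.6 FPKM in Recovery week 19. The HF week 5 values were below all others of these groups, and the log2 fold change was −1.97 (adjusted p = 6.03e-05 from limma). Atpaf1, which assembles the head of complex V, stood at 36.9 to 42.4 FPKM in Control week 19 and at 9.60, 25.8 and 26.1 FPKM in HF week 5 (log2 fold change −1.09). Cox15, which makes the haem of complex IV, stood at 3.73 to 6.07 FPKM against 2.36, 2.91 and 2.605 FPKM (−0.90). Recovery week 19 had 12 of the 26 higher than HF week 5, beside 12.3% of all genes, and limma called 0 of them against Control week 19. Without HF week 5 library 1, 6 of the 26 were called lower at HF week 5, beside 6.45% of all genes, and 4 higher in Recovery week 19, beside 6.9%. Of 7 tested subunits outside the symbol rule, 0 were called at HF week 5, Cox4i1 among them (log2 fold change −0.11, adjusted p = 0.719).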

How the data were processed

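RNA with poly(A) tails was sequenced from both ends in mouse hearts. Per the labels and the study's methods, the authors aligned reads with TopHat to the mouse genome (mm9) and deposited Cuffdiff FPKM values per gene in 1 table, with no counts. Absolute depth is therefore unknown, and no counting interval is given. The table's columns number the libraries within a group without naming the animal. For Recovery week 9 there were 2 columns for 3 labelled samples. The 5 columns of Control week 5, for 4 labelled samples, were not used here. The header names no unit, and FPKM was taken from the methods and the values.

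Genes whose mean over 24 libraries reached 0.5 FPKM were tested with limma 3.58.1 (R 4.3.3) on log2(FPKM + 0.5), with 1 mean per group, 16 residual degrees of freedom and a mean-variance trend. A fold change on this scale understates that of low genes. The p-values were Benjamini-Hochberg adjusted over all 12759 genes, and an adjusted p under 0.05 was called. On data simulated for HF week 5 against Control week 19 with 12759 genes, 75% of genes raised by 1 and 96% of genes lowered by 2 on the log2 scale were called, and 0.0876% of unchanged genes. Isoform ratios were compared with exact two-sided permutation tests in scipy 1.17.1.

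The subunit genes, marker lists and assembly lists were chosen with earlier results of these data known. Described with library values or group ranges were complex II, Cycs, the 3 lowest and 2 highest adjusted p at HF week 5 in complexes III, IV and V, and the isoform families; Atp5b and 3 assembly genes were added after their values were seen. Processed pseudogenes and near-identical copies could split reads between genes. Promoter windows came from RefSeq (GRCm38.p6), and no coordinates were moved between builds. Alternatives were other pseudocounts, filters and scalings, a fit of the compared groups alone and leaving out libraries.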

Additional observations from a re-analysis of the deposited data

Results flagged for a closer look

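In groups of 5 libraries, the gap between an end value and its nearest neighbour was divided by the group's range, both on the scale of log2(FPKM + 0.5) or of the log2 ratio, and 5 of 62 groups passed the 95% critical value of 0.71; chance gives about 1 in 20. In Control week 19, library 5 was apart for Sdhd (322 FPKM, the lowest, gap share 0.718), Cox5a (2301 FPKM, the highest, 0.827) and Cox7a2 (1404 FPKM, the highest, 0.742). Library 2 was apart for Cox6a1 (1051 FPKM, the highest, 0.781), and library 3 for the Cox8b to Cox8a ratio (log2 4.02, the lowest, 0.785).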

How the results depend on the processing

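No paired analysis was possible because the table's columns number libraries within a group and carry no animal or pairing of the labels. Quantile normalization gave more calls: 24 genes lower at HF week 5 (15.4% of all genes), 18 higher in Recovery week 19 (15.3%) and 14 higher in Recovery week 7 (11.4%), the last 2 against HF week 5, and 1 higher at HF week 3 (22.6%). It also turned Uqcr10, at 0.00, to −0.36 at HF week 5 and, at −0.04, to 0.28 for Recovery week 19 against HF week 5. With the length trend removed, added after seeing the data, 1 gene was higher at HF week 3. For Recovery week 7 against HF week 5, a fit of these groups alone called 0 higher, unadjusted p gave 10 higher and 4 lower, leaving out HF week 3 gave 2 lower, and leaving out HF week 3 and HF week 5 library 1, added after seeing the data, gave 3 lower. Against Control week 19, unadjusted p gave 10 lower in Recovery week 7. The cause of these shifts was not tested.

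With 1 library left out at a time, the genes called were 6 to 12 lower at HF week 5, 13 to 31 lower and 0 to 4 higher at HF week 3, 6 to 11 higher and 0 to 1 lower for Recovery week 19 against HF week 5, and 2 to 7 higher for Recovery week 7 against HF week 5. Library 1 of HF week 5 and of HF week 3 gave the lowest counts of lower calls, 6 and 13. Without HF week 3 library 2, 31 were lower and Atp5e, Atp5h, Cox6a1 and Uqcr were higher. A lone library left in a group was assumed to vary like the other groups. Of 504 values for 28 named genes at HF week 5 under the alternatives, 489 kept their side of the threshold with no called value turned, 4 lost the call, 10 gained it and 1 reversed; 44 values that were not called changed sign. For Recovery week 19 against HF week 5 these numbers were 487, 11, 5, 1 and 39. Isoform ratios had no call to lose, and groups this small can hardly pass the test. Absolute depth is unknown, so no limit from counting is given.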
